A study of Mus musculus with 12 samples.

Results

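The genes described here are a set of 47 interferon-stimulated and antigen presentation genes, listed by symbol, out of 34866 genes in a table of TPM, a transcript level already divided by length and scaled to a fixed total per library. Every symbol matched 1 identifier. Of the 47, 42 averaged 1 TPM or more across all 12 libraries and were tested among 12504 genes. Zbp1, Oas2, Oas3, Rsad2 and Iigp1 lay under that mean and are given by their TPM. Psmb9 reached the mean only through the labelled male WT libraries.

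The study asked whether loss of Sirt3, a mitochondrial deacetylase, acts differently in male and female cells. Mouse embryonic fibroblasts (MEFs) came from individual embryos 13 days old, of 129S1/SvImJ Sirt3+/+ (WT) or of Sirt3-/- (KO) mothers, and were immortalized with an SV40 plasmid; the sources used here name the strain of the WT mice only. Cells at passage 6 were seeded, and polyadenylated RNA was sequenced 48 h later from 3 cultures for each sex and genotype. No source states how many lines stand behind a group, and where a group is 1 line, then line, genotype and sex cannot be told apart. The sources name no added interferon, virus or other agent, and a target depth is stated but TPM keeps no record of the depth each library reached. The p-values measure only the spread between these cultures.

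Cells detect viral nucleic acid with sensors such as MDA5 and RIG-I, which switch on interferon genes through IRF3 and IRF7. Secreted interferon binds receptors on the same and neighbouring cells, and JAK kinases then activate STAT proteins, which with IRF9 bind response elements in the promoters of many interferon-stimulated genes. Fibroblasts make type I interferon on infection and keep a low tonic level of these genes without it, and interferon also raises MHC class I and the proteins that load it with peptides.

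Sirt3, the knocked-out gene, was read first. Its level was 6.59, 7.17 and 9.07 TPM in male WT, 8.88, 10.9 and 11 in labelled male KO, 7.40, 7.60 and 8.69 in female WT and 7.57, 9.06 and 8.19 in labelled female KO libraries. The labelled KO libraries were not below the labelled WT libraries in either sex, and TPM summed per gene cannot tell an intact from an altered transcript. The fold change did not pass the test in males (log2 fold change 0.39, standard error 0.14, adjusted p = 0.0981) or in females (log2 fold change 0.059, standard error 0.11, adjusted p = 0.772), so KO below always means a library labelled KO.

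The fibroblast label was read against marker genes. Of 12 fibroblast markers 11 were tested, and their summed level lay between 8297 and 13185 TPM in the 12 libraries, with Lum near 0. Of 12 blood and immune markers only Cd68 reached 1 TPM on average, at 3.95 to 9.93 TPM, and without Cd68 the list summed to at most 1.88 TPM in any library. Ptprc and Itgam stayed at or under 0.116 TPM, Lyz2 at or under 0.195 TPM, and Adgre1 was listed at 0 throughout. Csf1r, which was not tested, was 0.173, 0.286 and 0.165 TPM in male WT, 1.25, 1.35 and 1.64 in labelled male KO, 0.0973, 0.254 and 0.139 in female WT and 0.203, 0.346 and 0.312 in labelled female KO libraries. Its labelled male KO libraries lay above the other 9. Of 8 endothelial and epithelial markers 3 were tested, and Krt18, with the highest mean over the 12 libraries, was 8.48, 6.52 and 7.42 TPM in male WT, 0.293, 0.203 and 0.591 in labelled male KO, 3.76, 3.59 and 5.18 in female WT and 0.943, 1.07 and 0.833 in labelled female KO libraries. The 8 markers summed to 12.7, 11.3 and 11.4 TPM in male WT, 2.02, 2 and 2.75 in labelled male KO, 11.6, 12.5 and 12.2 in female WT and 4.12, 4.18 and 3.73 in labelled female KO libraries. Krt18 was lower in labelled KO cells of both sexes, as was Epcam. The limma interaction was called for Krt18 (-1.24, adjusted p = 0.00494). Among fibroblast markers it was called for S100a4 (-1.70, adjusted p = 1.16e-06) and Col1a2 (-0.50, adjusted p = 5.89e-05). In that test 6.33% of all genes were lower and 6.70% higher. Kdr was lower in labelled female KO cells (1.63 to 1.83 against 4.28 to 5.08 TPM, log2 fold change -1.06, adjusted p = 0.00368) and did not pass in males (log2 fold change -0.13, adjusted p = 0.614; interaction 0.93, adjusted p = 0.00625). Of 11 tested fibroblast markers 8 were higher and 0 lower in labelled female KO cells (5.63% and 5.84% of all genes), and 4 were higher and 2 lower in labelled male KO cells (10.7% and 10.9%). The part of these marker changes in the results below was not tested, and in bulk RNA fewer expressing cells and less RNA per cell cannot be told apart.

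Most members stood highest in the labelled male WT libraries. Of 42 tested members, 32 were lower in labelled male KO than in male WT cells at an adjusted p under 0.05, where 10.9% of all 12504 genes were lower, and 0 were higher, where 10.7% of all genes were higher (limma with Benjamini-Hochberg adjustment; 0 were higher at an unadjusted p under 0.05). The median log2 fold change of the 42 was -0.81, against -0.015 over all genes tested. In females 12 members were lower in labelled KO cells, where 5.84% of all genes were lower, and 2 were higher, where 5.63% of all genes were higher. The female median was -0.25, against -0.023 over all genes. The female count of 12 moved to 6 without library female WT 1 or 2, 7 without female KO 1 or female WT 3, 8 without female KO 2 and 11 without female KO 3. With 1 library left out the male count of 32 moved to between 29 and 31. With no filter on low values the female count was 6 and the male count was again 32, but not of the same members. Ifi35, Psmb8 and Tapbp lost their male call, and Oas3, Rsad2 and Iigp1, which the filter had left out, gained one. Fold changes are on the log2(TPM + 1) scale, which understates the change of genes with few TPM.

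**Figure D1:**
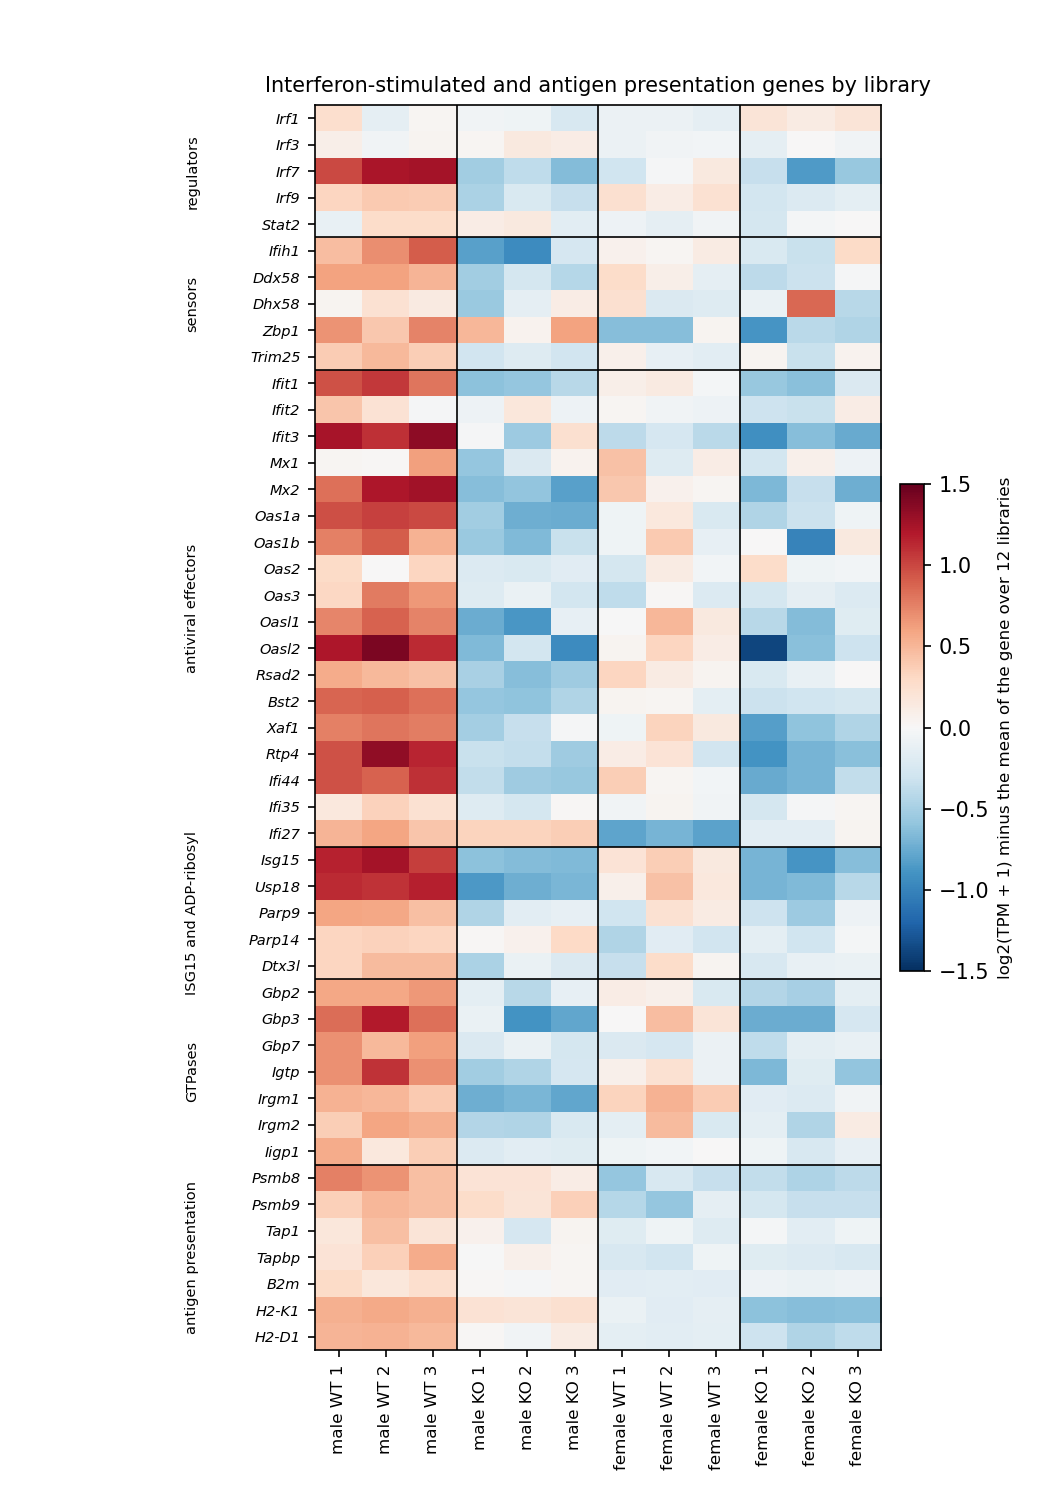
Heat map of the 47 members (rows, by role) in the 12 libraries (columns, by labelled group), with colour for log2(TPM + 1) minus the mean of the gene over all libraries. The labelled male WT columns hold the highest group mean for 39 of the 42 tested members.

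The 4 groups could be ordered by their group means. Labelled male WT held the highest mean for 39 of 42 tested members, where it did so for 23.9% of all genes tested; Psmb9, which the male WT libraries brought past the filter, is among them, and without it the count is 38 of 41. The lowest mean was in labelled male KO for 18 members, labelled female KO for 18 and female WT for 6. Over all genes tested these shares were 33.4%, 20.9% and 21.1%, against 42.9%, 42.9% and 14.3% of members. In 36 of 42 members (35 of 41 without Psmb9) every labelled male WT library lay above every labelled male KO library, against 21.2% of all genes, and in 18 every female WT library lay above every female KO library, against 18.7%. For 34 of 42 members the lowest labelled male WT library lay above the other 9 libraries, and 4.92% of all genes had that order (33 of 41 without Psmb9). Summed over the 40 members outside antigen presentation, the libraries held 1842, 1930.1 and 1809.7 TPM in male WT, 879, 894 and 928 in labelled male KO, 1083, 1135 and 1019 in female WT and 864, 877 and 964 in labelled female KO cells. The sums of both labelled KO groups overlapped, those of the WT groups did not, and Bst2 was the most abundant of these genes.

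The promoters of members were read for the sequence that interferon-activated factors bind. The core of the interferon-stimulated response element was written as TTTCNNTTTC, with N any base, and searched on both strands (GAAANNGAAA on the other) in RefSeq promoters of GRCm38.p6 that run from 250 bases before to 50 after a gene's start. Of 47 members 35 had such a promoter and 17 of them held the core, or 48.6%, against 3.99% of 27025 genes and 3.44% of 32851 promoters. The core of the gamma-activated site, TTCNNNGAA, which reads the same on both strands, stood in 9 of the 35 and in 9.55% of all genes. All 6 GTPases with a promoter held the response element core, as did 6 of 12 effectors, 2 of 3 sensors, 1 of 2 genes of the Isg15 and ADP-ribosyl group, 1 of 5 regulators and 1 of 7 antigen presentation genes (B2m). A match is a description of the letters and not a site of binding. The 5 called members with the core and the largest changes are shown, to let the letters be read beside the values. Capitals mark the response element core alone, with overlapping matches joined; the gamma-activated site cores of Oas1a and Bst2 are in lower case where they do not overlap it.

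The Isg15 promoter (chr4:156200769-156201068, minus strand) has 3 overlapping matches. Those of Oas1a (chr5:120907476-120907775, minus strand), Gbp3 (chr3:142559794-142560093, plus strand) and Bst2 (chr8:71537423-71537722, minus strand) have 2 overlapping matches each, and that of Ifit1 (chr19:34640639-34640938, plus strand) has 2 separate ones. All are written 5′ to 3′ on the strand of the gene, from GRCm38.p6.
Isg15: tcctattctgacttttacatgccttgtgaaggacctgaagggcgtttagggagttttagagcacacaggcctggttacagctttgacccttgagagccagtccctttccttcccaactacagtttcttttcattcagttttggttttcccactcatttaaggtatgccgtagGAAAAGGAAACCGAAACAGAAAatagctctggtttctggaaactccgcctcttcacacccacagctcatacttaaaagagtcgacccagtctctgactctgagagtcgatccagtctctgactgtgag
Oas1a: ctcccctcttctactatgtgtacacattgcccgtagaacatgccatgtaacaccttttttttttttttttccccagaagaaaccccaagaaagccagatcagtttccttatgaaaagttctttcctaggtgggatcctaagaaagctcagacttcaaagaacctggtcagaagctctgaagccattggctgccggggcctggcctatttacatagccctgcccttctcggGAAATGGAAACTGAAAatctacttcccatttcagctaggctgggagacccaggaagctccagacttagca
Gbp3: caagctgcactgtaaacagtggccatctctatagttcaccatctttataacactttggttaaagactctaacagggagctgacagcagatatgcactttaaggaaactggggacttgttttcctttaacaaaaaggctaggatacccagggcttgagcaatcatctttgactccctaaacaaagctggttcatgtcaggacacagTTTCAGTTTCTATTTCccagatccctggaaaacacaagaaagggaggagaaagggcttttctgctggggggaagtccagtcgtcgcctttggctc
Ifit1: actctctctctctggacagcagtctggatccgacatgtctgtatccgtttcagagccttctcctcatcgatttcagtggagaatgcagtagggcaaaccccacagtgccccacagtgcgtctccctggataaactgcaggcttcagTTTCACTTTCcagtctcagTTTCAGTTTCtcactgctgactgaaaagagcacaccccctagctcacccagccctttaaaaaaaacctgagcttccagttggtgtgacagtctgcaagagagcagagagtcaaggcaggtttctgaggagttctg
Bst2: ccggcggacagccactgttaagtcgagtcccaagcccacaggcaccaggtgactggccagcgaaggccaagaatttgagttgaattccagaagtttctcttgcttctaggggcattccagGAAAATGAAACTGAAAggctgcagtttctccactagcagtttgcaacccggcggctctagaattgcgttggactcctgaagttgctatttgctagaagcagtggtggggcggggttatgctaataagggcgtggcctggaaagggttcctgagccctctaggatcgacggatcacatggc

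**Figure D2:**
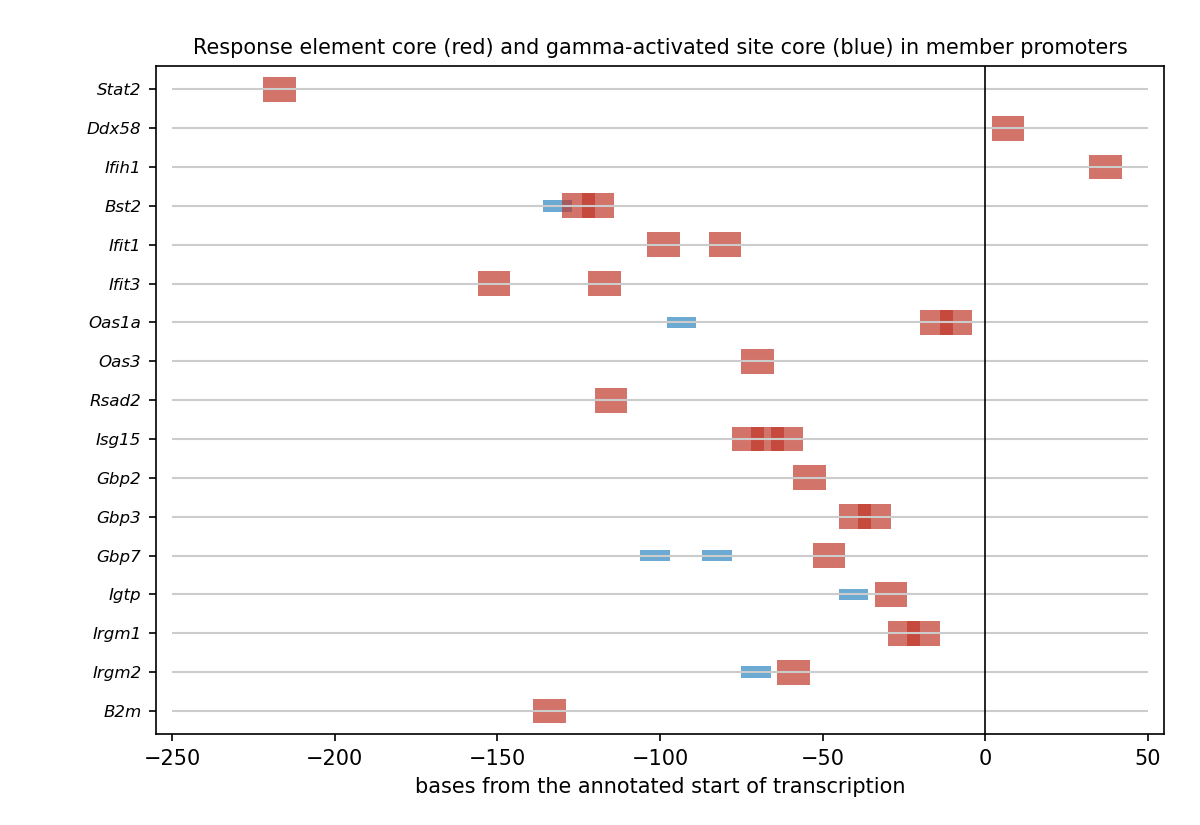
Positions of the response element core (red) and the gamma-activated site core (blue) in the 17 member promoters that hold the response element core, against the distance in bases from the annotated start. Darker red marks overlapping matches.

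Of the 5 regulators, 2 (Irf7 and Irf9) were lower in labelled male KO cells (10.9% of all genes), and in labelled female KO cells Irf9 was lower (5.84%) and Irf1 higher (5.63%). Irf7, the factor that amplifies the interferon response, was 25.3, 29.9 and 30.4 TPM in male WT, 8.21, 9.18 and 7.42 in labelled male KO, 9.78, 12.1 and 13.6 in female WT and 9.41, 6.35 and 7.93 in labelled female KO libraries. All labelled male WT libraries lay above the other 9, and female WT lay above both KO groups, which overlapped. The male change passed the test (log2 fold change -1.67, standard error 0.11, adjusted p = 9.24e-05), the female one did not (log2 fold change -0.53, adjusted p = 0.0935), and the difference between them did (interaction -1.14, adjusted p = 0.00326). Irf7 lies on chromosome 7 (141262706 to 141266481 in GRCm38), 380.4 kb from Sirt3, and Irf3, the other member on that chromosome, lies 95861 kb away. The part of the position of Irf7 was not tested.

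Irf9, the DNA-binding partner of STAT2, was 46.7, 49.1 and 48.5 TPM in male WT, 26.3, 31.4 and 28.9 in labelled male KO, 44.0, 40.2 and 43.6 in female WT and 30.5, 31.9 and 33.3 in labelled female KO libraries. Each labelled KO library lay below every labelled WT library of its sex, in males (log2 fold change -0.72, adjusted p = 7.37e-04) and in females (log2 fold change -0.41, adjusted p = 0.00841). Irf3, the most abundant regulator at 51.9 to 63.1 TPM, and Stat2 at 15.5 to 23 TPM did not pass in either sex. Irf1 passed in females, where it was higher in labelled KO cells (22.8 to 24.0 against 18.9 to 19.6 TPM, log2 fold change 0.27, adjusted p = 0.0299), and not in males (interaction -0.43, adjusted p = 0.0509). For Irf1, the female change was not called without library female KO 1, 2 or 3, or female WT 1, 2 or 3 (adjusted p from 0.0620 to 0.0973), nor, with all libraries, in 1 fit of all 12 libraries (adjusted p = 0.0786) or with the replicate number as a block (adjusted p = 0.0939).

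Of 4 tested sensing genes, 3 (Ifih1, Ddx58 and Trim25) were lower in labelled male KO cells, where 10.9% of all genes were lower. Ifih1 encodes MDA5, which binds long double-stranded RNA, and was 8.97, 10.7 and 12.6 TPM in male WT, 3.09, 2.75 and 5.08 in labelled male KO, 6.52, 6.39 and 6.88 in female WT and 5.14, 4.71 and 7.80 in labelled female KO libraries. The male groups did not overlap and the female groups did. The male change was -1.36 (standard error 0.21, adjusted p = 0.00480) and the female one -0.17 (adjusted p = 0.587; interaction -1.19, adjusted p = 0.0184). Ddx58, which encodes the 5′-triphosphate RNA sensor RIG-I, was 45.8, 45.7 and 42.8 TPM in male WT, 20.5, 24.6 and 21.8 in labelled male KO, 36.3, 31.6 and 27.0 in female WT and 22.5, 23.6 and 29.4 in labelled female KO libraries. Labelled male WT lay above the other 9 libraries, among which each KO group overlapped a neighbour (log2 fold change -0.98, adjusted p = 2.48e-04 in males; -0.32, adjusted p = 0.190, in females; interaction -0.66, adjusted p = 0.0230). For Ddx58, the interaction was not called without library male WT 1 or 2, or male KO 1 or 3 (adjusted p from 0.0501 to 0.0551). Trim25, the ubiquitin ligase that activates RIG-I, fell by 0.67 in labelled male KO cells (adjusted p = 4.97e-04) and stood at -0.012 in females. Dhx58 passed in neither sex, and Zbp1 lay between 0 and 2.09 TPM.

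Antiviral effectors made up the largest group, with 18 members of which 15 were tested. In labelled male KO cells 12 of the 15 were lower (10.9% of all genes) and 0 higher (10.7%), with a median of -1.37. In labelled female KO cells 5 were lower (5.84% of all genes) and 1 was higher (5.63%), with a median of -0.43.

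The oligoadenylate synthetases make the messenger that activates RNase L, and their relatives Oasl1 and Oasl2 carry ubiquitin-like domains. Oasl2 was 27.3, 31.7 and 25.6 TPM in male WT, 6.73, 9.09 and 5.37 in labelled male KO, 11.6, 14.3 and 12.2 in female WT and 3.72, 6.92 and 8.89 in labelled female KO libraries. Labelled male WT lay above every other library and female WT above female KO, but only the male change passed (log2 fold change -1.88, standard error 0.17, adjusted p = 4.74e-04), and not the female one (log2 fold change -0.93, adjusted p = 0.0724) or the difference (interaction -0.95, adjusted p = 0.0990). Oas1a was 28.4, 29.7 and 28.9 TPM in male WT, 9.52, 8.08 and 8.02 in labelled male KO, 13.4, 15.8 and 11.9 in female WT and 10, 11.1 and 13.4 in labelled female KO libraries. Its male change (log2 fold change -1.66, standard error 0.087, adjusted p = 3.55e-05) differed from the female one (log2 fold change -0.24, adjusted p = 0.333), with the largest interaction among the 42 tested members at -1.42 (adjusted p = 1.57e-04).

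Oasl1 was 8.03, 9.05 and 8.09 TPM in male WT, 2.26, 1.96 and 3.98 in labelled male KO, 4.43, 6.67 and 5.02 in female WT and 3.07, 2.48 and 3.78 in labelled female KO libraries. Its highest labelled male KO library was under its lowest labelled male WT library (log2 fold change -1.37, adjusted p = 0.00429), and the female change did not pass (log2 fold change -0.63, adjusted p = 0.0781; interaction -0.74, adjusted p = 0.131), although those groups did not overlap either. Oas1b was 11.1, 12.5 and 9.29 TPM in male WT, 3.88, 3.53 and 4.71 in labelled male KO, 5.88, 8.40 and 5.61 in female WT and 6.20, 2.59 and 6.92 in labelled female KO libraries. Its male groups were apart and its female groups overlapped (log2 fold change -1.24, adjusted p = 0.00141 in males; interaction -0.89, adjusted p = 0.161). Of the 31-base words in Oas1a transcripts 68.8% also occur in other genes, chiefly Oas1g, so reads of Oas1a could be shared with it.

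Ifit proteins bind viral RNA that lacks the host cap. Ifit1 was 18.3, 19.8 and 16.4 TPM in male WT, 5.47, 5.66 and 6.48 in labelled male KO, 9.53, 9.95 and 8.72 in female WT and 5.72, 5.42 and 7.59 in labelled female KO libraries. Labelled male WT exceeded the other 9 libraries and female WT exceeded female KO. The male change passed (log2 fold change -1.48, standard error 0.11, adjusted p = 1.53e-04) and the female one did not (log2 fold change -0.53, adjusted p = 0.0515; interaction -0.95, adjusted p = 0.00335). Ifit3 was 14.8, 13.3 and 16.0 TPM in male WT, 5.65, 3.61 and 6.94 in labelled male KO, 4.13, 4.63 and 4.08 in female WT and 2.54, 3.30 and 2.98 in labelled female KO libraries. Here the labelled male KO libraries overlapped female WT, and labelled male WT was apart from all the rest (log2 fold change -1.33, adjusted p = 0.00433 in males; interaction -0.90, adjusted p = 0.0332). For Ifit3, the interaction was not called without library male WT 1 or 3, or female WT 1 or 3, or female KO 2 or 3 (adjusted p from 0.0660 to 0.0785), nor, with all libraries, with a pseudocount of 0.1 (adjusted p = 0.0572) or with no filter on low values (adjusted p = 0.0739). Ifit3 shares 61.8% of its 31-base words with other genes, all of them with Ifit3b, and Ifit2, which shares none, did not pass (8.65 to 12.5 TPM in males, log2 fold change -0.19, adjusted p = 0.364).

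Mx proteins are GTPases that trap viral nucleocapsids. Mx2 was 7.13, 9.60 and 10 TPM in male WT, 1.95, 2.05 and 1.60 in labelled male KO, 5.05, 3.79 and 3.69 in female WT and 1.87, 2.60 and 1.76 in labelled female KO libraries. The WT and KO libraries did not overlap in either sex, and both changes passed, at -1.78 in males (standard error 0.16, adjusted p = 3.97e-04) and -0.75 in females (standard error 0.17, adjusted p = 0.0379). For Mx2, the female change was not called without library female KO 1 or 3, or female WT 1, 2 or 3 (adjusted p from 0.0784 to 0.107), nor, with all libraries, with no filter on low values (adjusted p = 0.0949) or with the replicate number as a block (adjusted p = 0.0914). Mx1 stood at 0.492 to 2.42 TPM over all libraries and passed in neither sex.

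Bst2, or tetherin, which holds budding virions at the cell surface, was the most abundant effector. Its level was 625, 637 and 608 TPM in male WT, 229, 224 and 250.4 in labelled male KO, 353, 350.0 and 308 in female WT and 274, 277 and 285 in labelled female KO libraries. The 4 groups did not overlap and ran from labelled male WT through female WT and female KO to male KO. The male change was -1.41 (standard error 0.049, adjusted p = 7.67e-06) and the female change -0.27 (standard error 0.055, adjusted p = 0.0258). Their difference, -1.14, had the smallest adjusted p of the 42 tested members (2.52e-06). For Bst2, the female change was not called without library female KO 1, 2 or 3, or female WT 1 or 2 (adjusted p from 0.0630 to 0.0822), nor, with all libraries, with no filter on low values (adjusted p = 0.0897), without the mean-variance trend (adjusted p = 0.0696) or with the replicate number as a block (adjusted p = 0.0745).

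Rtp4, a receptor transporter protein, was 58.3, 75.7 and 66.6 TPM in male WT, 23.2, 22.8 and 20.2 in labelled male KO, 32, 34.2 and 24.1 in female WT and 15.5, 17.9 and 18.8 in labelled female KO libraries. Labelled male WT was above all other libraries, and labelled female KO lay under female WT (log2 fold change -1.55, adjusted p = 1.03e-04 in males and -0.75, adjusted p = 0.0200, in females). Ifi44 was 29.0, 27.6 and 32.1 TPM in male WT, 10.9, 9.64 and 9.40 in labelled male KO, 19.0, 14.7 and 14.0 in female WT and 8.15, 8.51 and 10.9 in labelled female KO libraries. Male WT lay above female WT and female WT above both KO groups, which overlapped, with both changes past the threshold (log2 fold change -1.48, adjusted p = 7.10e-05 in males and -0.73, adjusted p = 0.0275, in females). Xaf1, a pro-apoptotic antagonist of XIAP, was 61.1, 63.2 and 61.7 TPM in male WT, 24.8, 28.0 and 35.4 in labelled male KO, 34.3, 45.3 and 39.6 in female WT and 19.8, 23.3 and 25.9 in labelled female KO libraries. Its labelled male KO and female WT libraries overlapped, and its change was -1.06 in males (adjusted p = 0.00119) and -0.76 in females (adjusted p = 0.0139). For Rtp4, the female change was not called without library female KO 1 or 2, or female WT 1 or 2 (adjusted p from 0.0614 to 0.0738), nor, with all libraries, with no filter on low values (adjusted p = 0.0780) or with the replicate number as a block (adjusted p = 0.0618). For Ifi44, the female change was not called without library female KO 1 or 2, or female WT 1, 2 or 3 (adjusted p from 0.0536 to 0.0887), nor, with all libraries, with no filter on low values (adjusted p = 0.0926) or with the replicate number as a block (adjusted p = 0.0835). For Xaf1, the female change was not called without library female WT 3 (adjusted p = 0.0506), nor, with all libraries, with no filter on low values (adjusted p = 0.0605).

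Ifi27, a small membrane protein and next to Bst2 in abundance among the effectors, was higher in labelled female KO cells. Its level was 213, 225 and 199.8 TPM in male WT, 188, 189 and 194 in labelled male KO, 86.2, 91.5 and 85.4 in female WT and 134, 134 and 154 in labelled female KO libraries. Males of both genotypes were above all female libraries, and labelled female KO was above female WT. It rose in labelled female KO cells (log2 fold change 0.67, standard error 0.063, adjusted p = 0.00144) and did not pass in males (log2 fold change -0.16, adjusted p = 0.0645), and the difference did pass (interaction -0.83, adjusted p = 4.93e-05). Ifi35 was lower in labelled male KO cells (38.1 to 46.7 against 51.6 to 58.8 TPM, log2 fold change -0.39, adjusted p = 0.0207). For Ifi35, the male change was not called without library male KO 1 or 2, or male WT 2 or 3 (adjusted p from 0.0567 to 0.0690), nor, with all libraries, with no filter on low values (adjusted p = 0.0737).

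Oas2, Oas3 and Rsad2 (viperin, which makes a chain-terminating nucleotide) lay under the filter. Rsad2 was 1.36, 1.24 and 1.18 TPM in male WT, 0.146, 0.0337 and 0.112 in labelled male KO, 1.01, 0.753 and 0.652 in female WT and 0.365, 0.486 and 0.614 in labelled female KO libraries. Its labelled male KO libraries were the lowest 3 of the 12. Oas3 was 0.649, 1.29 and 1.08 TPM in male WT, 0.167, 0.238 and 0.0990 in labelled male KO, 0.0207, 0.342 and 0.152 in female WT and 0.108, 0.210 and 0.151 in labelled female KO libraries. Its male WT libraries lay above the other 9. Oas2 lay at 0.0254 to 0.543 TPM over all libraries. In a fit of 22401 genes without a filter, Rsad2 and Oas3 passed in males (log2 fold changes -1.04 and -0.77, adjusted p = 0.00133 and 0.0354) and not in females (adjusted p = 0.258 and 1), and Oas2 passed in neither sex.

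**Figure D3:**
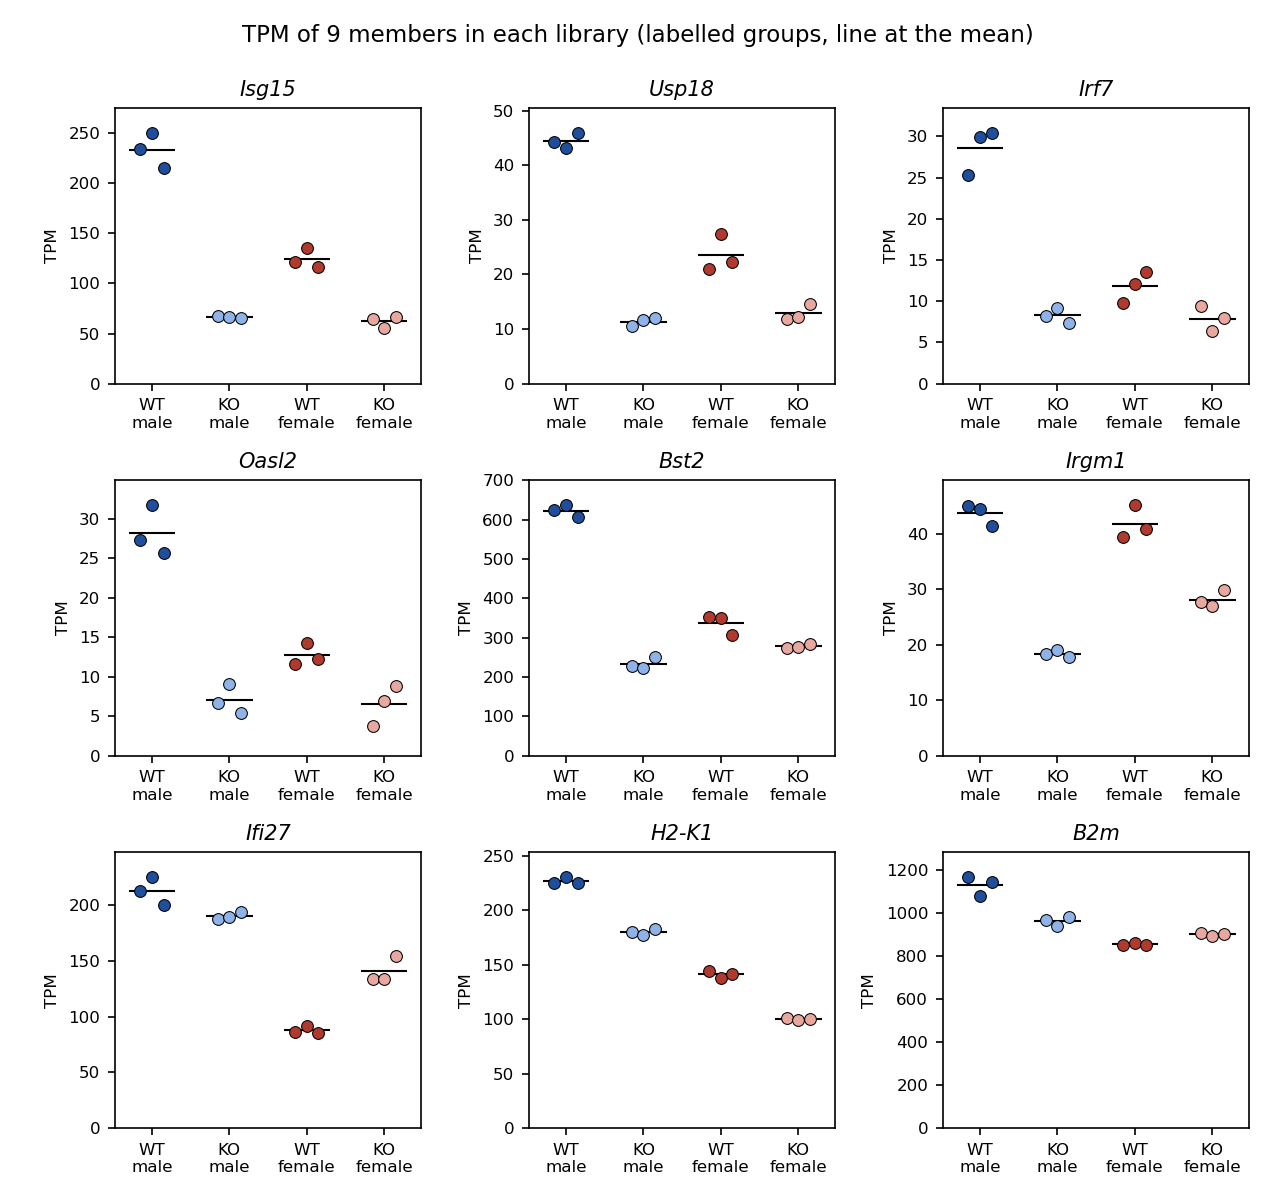
TPM of 9 members in each of the 12 libraries, with 3 cultures per labelled group and a line at each group mean; each vertical axis starts at 0. Isg15, Usp18, Irf7, Oasl2 and Bst2 are highest in labelled male WT, Irgm1 is near 43.6 and 41.8 TPM in both WT groups, and Ifi27 is lowest in labelled female WT.

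Isg15, a ubiquitin-like protein that is attached to other proteins, and Usp18, the protease that removes it and also dampens the type I receptor, changed in both sexes. Isg15 was 234, 250.1 and 215 TPM in male WT, 68.0, 66.6 and 65.6 in labelled male KO, 121, 135 and 116 in female WT and 64.2, 56.0 and 66.9 in labelled female KO libraries. The 2 labelled KO groups overlapped at 56.0 to 68.0 TPM, while the male and female WT groups were apart. It fell by 1.79 in males (standard error 0.059, adjusted p = 7.67e-06) and by 0.98 in females (standard error 0.083, adjusted p = 9.01e-04), and the difference passed (interaction -0.80, adjusted p = 3.99e-04).

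Usp18 was 44.2, 43.2 and 45.9 TPM in male WT, 10.5, 11.6 and 12 in labelled male KO, 21, 27.4 and 22.3 in female WT and 11.9, 12.2 and 14.6 in labelled female KO libraries. The mean of the labelled male WT libraries was 3.91 times that of male KO, and in females the ratio was 1.82. Both changes passed (log2 fold change -1.88, adjusted p = 1.16e-05 in males and -0.82, adjusted p = 0.00960, in females). Parp9 and its partner Dtx3l, an ADP-ribosyltransferase and a ubiquitin ligase, were lower in labelled male KO cells (log2 fold changes -0.79 and -0.69) and did not pass in females (-0.32 and -0.15), and Parp14 passed in neither sex.

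Interferon-inducible GTPases coat the vacuoles of intracellular parasites and bacteria. All 6 that were tested were lower in labelled male KO cells (10.9% of all genes), with a median of -1.04, and 2 were lower in labelled female KO cells (5.84% of all genes). Irgm1, a regulator of the immunity-related GTPases, was 45.0, 44.5 and 41.4 TPM in male WT, 18.3, 19.0 and 17.7 in labelled male KO, 39.4, 45.1 and 40.8 in female WT and 27.6, 26.9 and 29.9 in labelled female KO libraries. Both WT groups stood together at 39.4 to 45.1 TPM, labelled female KO lay below them and labelled male KO below that. The labelled male WT and female WT libraries overlapped, and both KO changes passed (log2 fold change -1.20, adjusted p = 3.59e-05 in males and -0.55, adjusted p = 0.00500, in females).

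Gbp3 was 14.0, 18.2 and 13.9 TPM in male WT, 6.89, 3.51 and 3.91 in labelled male KO, 7.44, 10.6 and 8.63 in female WT and 4.05, 4.05 and 6.10 in labelled female KO libraries. Its WT and KO libraries did not overlap in either sex (log2 fold change -1.54, adjusted p = 0.00392 in males and -0.79, adjusted p = 0.0396, in females). For Gbp3, the female change was not called without library female KO 1 or 2, or female WT 1, 2 or 3 (adjusted p from 0.0637 to 0.115), nor, with all libraries, with no filter on low values (adjusted p = 0.121), without the mean-variance trend (adjusted p = 0.0569) or with the replicate number as a block (adjusted p = 0.0784). Igtp was 8.31, 11.3 and 8.34 TPM in male WT, 3.02, 3.25 and 3.87 in labelled male KO, 5.09, 5.81 and 4.44 in female WT and 2.62, 4.09 and 2.83 in labelled female KO libraries. Its male change passed (log2 fold change -1.23, adjusted p = 0.00187) and its female change did not (interaction -0.67, adjusted p = 0.0906), and it shares 15.9% of its 31-base words with Irgm2 and Irgm1. Irgm2 itself was 4.69, 5.63 and 5.38 TPM in male WT, 2.24, 2.23 and 2.77 in labelled male KO, 2.97, 5.12 and 2.77 in female WT and 2.98, 2.23 and 3.78 in labelled female KO libraries. The male groups did not overlap (log2 fold change -0.87, adjusted p = 0.00499) and the female groups did (interaction -0.68, adjusted p = 0.157). Gbp2 and Gbp7 had log2 fold changes of -0.83 and -0.79 in males, both called, and Iigp1 lay at 0.0718 to 0.853 TPM. In the fit without a filter Iigp1 passed in males (log2 fold change -0.54, adjusted p = 0.0440) and not in females (-0.11, adjusted p = 0.366).

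Antigen presentation genes had small fold changes. MHC class I molecules H2-K1 and H2-D1 pair with B2m at the cell surface and are loaded with peptides that the proteasome subunits Psmb8 and Psmb9 help to cut, Tap1 carries and Tapbp fits. Of these 7 members 5 were lower in labelled male KO cells (10.9% of all genes), with a median of -0.33, and 2 in labelled female KO cells (5.84% of all genes), with a median of -0.013. In the 6 other than Psmb9, all labelled male WT libraries lay above the other 9, an order that 4.92% of all genes had.

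B2m, the most abundant member, was 1165, 1077 and 1143 TPM in male WT, 969, 940.5 and 979 in labelled male KO, 852, 859 and 849.5 in female WT and 908, 892 and 903 in labelled female KO libraries. Labelled male WT was highest, male KO next and female WT lowest, with no overlap between groups. The male change was -0.23 (standard error 0.037, adjusted p = 0.00604) and the female change 0.078 (standard error 0.021, adjusted p = 0.0589). H2-D1 was 273, 275 and 268 TPM in male WT, 193, 185 and 208 in labelled male KO, 173, 171 and 172 in female WT and 154, 139 and 146 in labelled female KO libraries. The groups descended without overlap from male WT to female KO, with both changes called (log2 fold change -0.48, adjusted p = 7.14e-04 in males and -0.23, adjusted p = 0.0165, in females). For H2-D1, the female change was not called without library female KO 3, or female WT 1, 2 or 3 (adjusted p from 0.0513 to 0.0625), nor, with all libraries, without the mean-variance trend (adjusted p = 0.0546).

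H2-K1 was 225, 230.2 and 225 TPM in male WT, 180.3, 177 and 183 in labelled male KO, 144, 138 and 141 in female WT and 101, 98.8 and 100.2 in labelled female KO libraries. Its 4 groups ran in the same order, again without overlap. Its female change (log2 fold change -0.49, standard error 0.032, adjusted p = 3.11e-04) was the larger of the 2, against -0.33 in males (standard error 0.034, adjusted p = 7.35e-04), and its interaction of 0.16 (adjusted p = 0.0238) was the 1 positive one called among 19. For H2-K1, the interaction was not called without library male WT 1 or 3, or male KO 3, or female WT 1 or 3, or female KO 2 (adjusted p from 0.0526 to 0.0624), nor, with all libraries, with median-of-ratios scaling (adjusted p = 0.0516) or without the mean-variance trend (adjusted p = 0.0784). H2-K1 shares 22.8% and H2-D1 26.7% of their 31-base words with other genes, and a shift of reads between class I genes cannot be told apart from a change. Psmb8 and Tapbp passed in males (-0.46 and -0.34). For Psmb8, the male change was not called without library male KO 1 or 3, or male WT 1 or 2 (adjusted p from 0.0512 to 0.0717), nor, with all libraries, with no filter on low values (adjusted p = 0.0510). For Tapbp, the male change was not called without library male KO 1, 2 or 3, or male WT 2 or 3 (adjusted p from 0.0580 to 0.0980), nor, with all libraries, with no filter on low values (adjusted p = 0.112) or without the mean-variance trend (adjusted p = 0.0665). Tap1 and Psmb9 did not pass in either sex.

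**Figure D4:**
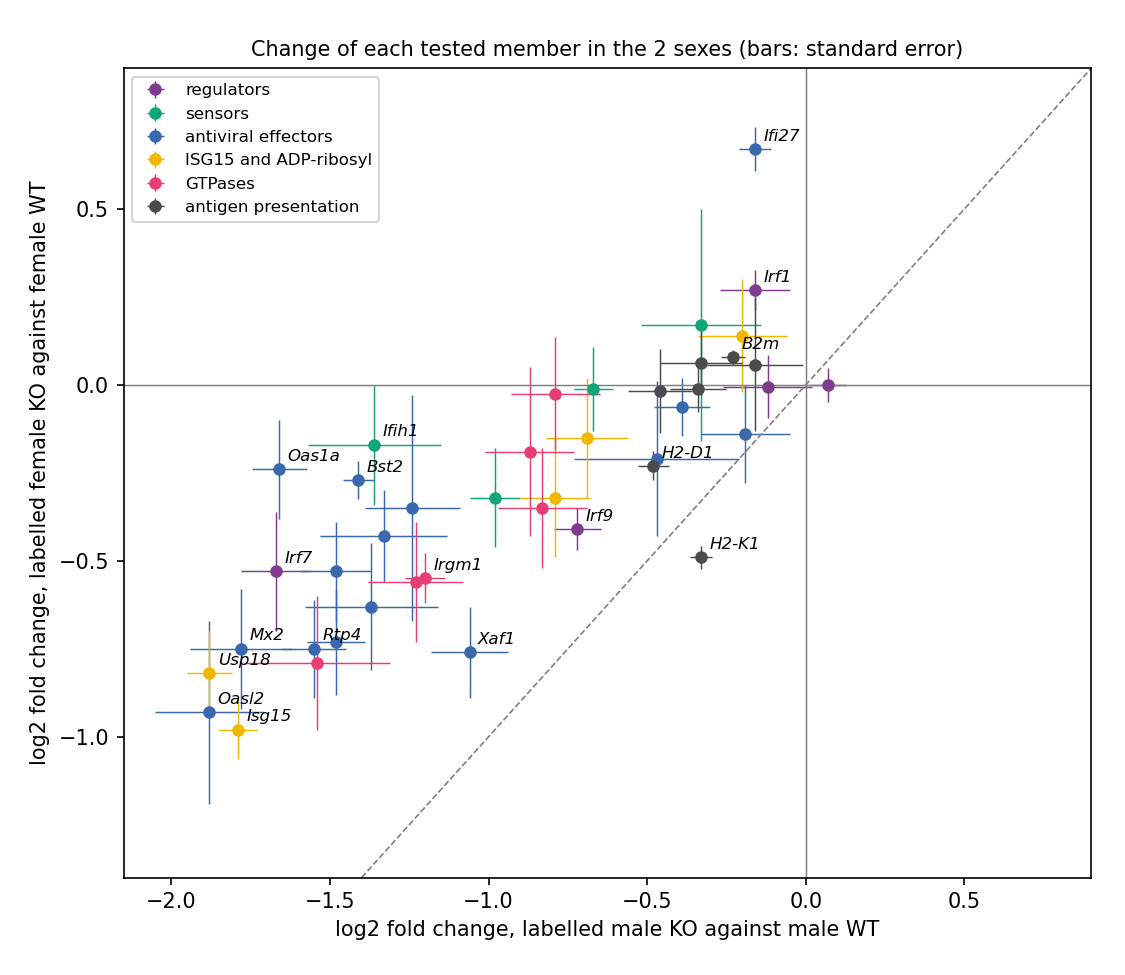
Log2 fold change of the 42 tested members in labelled male KO against male WT (horizontal) and labelled female KO against female WT (vertical), coloured by role, with bars for the standard error and a dashed line where both are equal. Most members lie left of the line; H2-K1 lies below it, and Ifi27 stands at -0.16 and 0.67.

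Set side by side, the 12 members lower in labelled female KO cells were all among the 32 lower in labelled male KO cells (100% of the female list and 37.5% of the male list), where 2.31% of all genes were lower in both, or 39.6% of the female and 21.2% of the male list over all genes. They were Irf9, Mx2, Bst2, Xaf1, Rtp4, Ifi44, Isg15, Usp18, Gbp3, Irgm1, H2-K1 and H2-D1. The calls of Irf9, Irgm1, Isg15, Usp18 and H2-K1 in females, and of Ifi27 in the other direction, were kept under every alternative, and the other 8 female calls were lost in at least 1.

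Whether the KO effect differed between the sexes was tested over all 12 libraries. In the interaction 18 members were lower, meaning a more negative change in males, where 6.33% of all genes were lower, and 1 was higher, where 6.70% were higher. The median was -0.65, against 0.0047 over all genes. The labelled libraries of both WT groups enter this test and the comparisons above, so these are not separate evidence. For Gbp7, the interaction was not called without library male WT 1 or 3, or male KO 1 or 3, or female WT 1 or 2, or female KO 2 or 3 (adjusted p from 0.0511 to 0.0629). For H2-D1, the interaction was not called without library male WT 1 or 2, or male KO 1 or 2, or female WT 2 or 3, or female KO 1 or 3 (adjusted p from 0.0513 to 0.0617), nor, with all libraries, without the mean-variance trend (adjusted p = 0.0639).

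Between the WT groups, 31 members were higher in labelled male than in female cells, where 6.26% of all genes were higher, and 0 were lower, where 6.56% were lower (limma; 0 were lower at an unadjusted p under 0.05). Without Psmb9 the count was 30 of 41. Leaving out library male WT 3 gave 20 higher members. All 42 tested members had a log2 difference above 0, with a median of 0.64 against -0.018 over all genes. The 42 include Psmb9, which the labelled male WT libraries brought past the filter, so its direction is not separate evidence. Cell type markers differed between the WT groups too. Of 11 tested fibroblast markers, limma called 6 higher in labelled male cells and 0 lower (6.26% and 6.56% of all genes). At an unadjusted p under 0.05, 1 was lower. Those called included S100a4 (2.23), Pdgfra (1.34) and Col3a1 (1.32). Krt18 was higher (0.72) and Kdr lower (-1.24), both called. The part of these markers was not tested. Between the KO groups 5 members were higher in males, where 8.17% of all genes were higher, and 3 were lower, where 8.39% were lower, and the median was 0.049 against -0.013. These comparisons share their libraries with those of KO and WT. The members higher in labelled male KO than in female KO cells were Ifi27, H2-K1, H2-D1, Psmb8 and Tapbp, so 4 of the 5 belong to antigen presentation. The 3 lower ones were Irf1, Bst2 and Irgm1, of which 1 was left without library male KO 1 and 1 without female KO 3.

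Other genes of the pathway were read from lists of the same kind. The interferon genes Ifnb1, Ifna4, Ifng, Ifnl2 and Ifnl3 were listed at 0 in all 12 libraries and Ifna2 at 0.12 TPM in 1 labelled female WT library. The type I receptor chains, chosen after their values were seen, were at 31.8 to 40.0 TPM (Ifnar1) and 33.1 to 54.9 TPM (Ifnar2). Both were higher in labelled male KO cells by limma (log2 fold changes 0.27 and 0.38, adjusted p = 0.0111 and 0.0364), and neither was called in females. The interaction was called for Ifnar1 (0.24, adjusted p = 0.0203) and not for Ifnar2 (0.45, adjusted p = 0.0905). Of 16 tested receptor, JAK-STAT and regulator genes 6 were higher and 2 lower in labelled male KO cells (10.7% and 10.9% of all genes), and 0 were called in females (5.63% and 5.84% of all genes) by limma (2 higher and 2 lower at an unadjusted p under 0.05). The 6 higher in labelled male KO cells were Socs3 and Stat3 (log2 fold changes 0.75 and 0.62), Jak2 and Jak1 (0.50 and 0.25) and both type I receptor chains.

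Of 33 other tested interferon-stimulated genes, 18 were lower and 2 higher in labelled male KO cells (10.9% and 10.7% of all genes; median -0.58). Phf11d, which the labelled male KO libraries brought past the filter, is among the higher genes, and without it 18 of 32 were lower and 1 higher. In labelled female KO cells 2 were lower and 3 higher, where 5.84% and 5.63% of all genes were (median -0.047). Together 15.2% of the 33 were called there, against 11.5% of all genes. Ifi27l2a, a relative of Ifi27, was 97.5, 63.5 and 74.8 TPM in male WT, 21.6, 16.3 and 12 in labelled male KO, 13.7, 13.6 and 13.2 in female WT and 25.4, 20.8 and 32.3 in labelled female KO libraries. Like Ifi27 it was higher in labelled female KO than in female WT cells (log2 fold change 0.89, adjusted p = 0.0131), while in males it was lower in KO (log2 fold change -2.19, adjusted p = 7.51e-04). Sp100 was lower in labelled male KO cells (log2 fold change -1.81).

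Other sensing genes gave 4 of 15 lower and 0 higher in labelled male KO cells (limma; 1 higher at an unadjusted p under 0.05), where 10.9% and 10.7% of all genes were, among them Tank, Eif2ak2 (PKR) and Adar. In females 1 of 15 was lower, near the 5.84% of all genes. Of 24 other class I presentation genes 6 were lower and 3 higher in males (10.9% and 10.7% of all genes), and 2 were lower and 2 higher in females (5.84% and 5.63%). The non-classical class I genes H2-Q6 and H2-Q7 were lower in both sexes (-1.77 and -1.63 in males, -0.96 and -0.94 in females), and Tap2 was higher in labelled male KO cells (0.72). Of 7 MHC class II genes 2 reached the filter, and the list summed to 2.66 to 6.69 TPM.

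**Figure D5:**
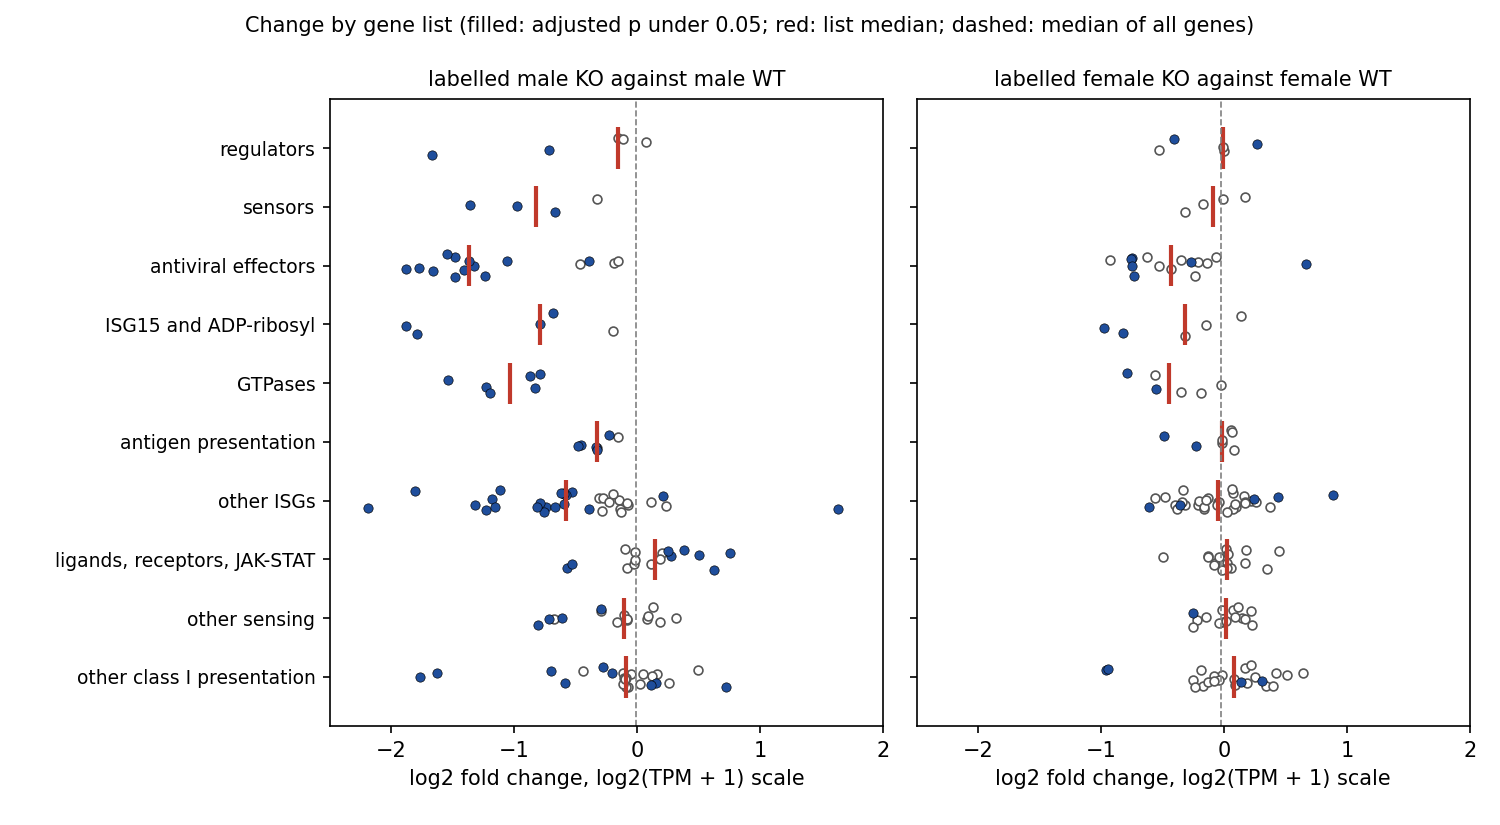
Log2 fold change of each tested gene in the member groups and other pathway lists, in labelled male KO against male WT (left) and labelled female KO against female WT (right); filled points passed an adjusted p under 0.05, red lines are list medians and the dashed line is the median of all 12504 genes. Effectors have medians of -1.37 and -0.43, and receptor and JAK-STAT genes 0.14 and 0.021.

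Many members share a chromosome. Chromosome 11 holds 8, including Igtp, Irgm1 and Irgm2, and 6 each on chromosome 5 (the Oas and Oasl genes), chromosome 16 (Mx1, Mx2, Rtp4, Parp9, Parp14 and Dtx3l) and chromosome 17 (the MHC region). Called members in males lay on each of these chromosomes.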

How the data were processed

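RNA was measured by sequencing in 12 libraries, 3 for each labelled group. The authors deposited TPM per gene, made with Salmon (1.10.1 in the submitters' processing notes) on GRCm38; the annotation release is not given in the sources used here. TPM keeps no depth, so the depth each library reached is unknown. Identifiers were matched to GENCODE M21 symbols (99.4% of 34866 identifiers). Genes averaging 1 TPM or more were tested on log2(TPM + 1) with limma 3.58.1 in R 4.3.3, with a mean-variance trend and Benjamini-Hochberg adjustment over 12504 genes, and called at an adjusted p under 0.05. Both KO comparisons and both sex comparisons used the 6 libraries of their groups, and the interaction used all 12. The fit was tested on simulated data. Full values were given for Sirt3, for called members by the larger absolute fold change in either KO comparison, at most 20, and for the 3 with the highest mean TPM; other members by range, with examples of high mean per role. Values in every library were also shown for Irf9, Ifi27, H2-K1, Rsad2, Oas3, Ifi27l2a and the markers Csf1r and Krt18, chosen after their values were seen. The members and lists were chosen with earlier results of these data known. Promoters came from RefSeq on GRCm38.p6, and no protein sequences were compared. Alternatives were a pseudocount of 0.1, no filter, a filter at 5 TPM, scaling by median of ratios or by quantiles, no trend, 1 fit of all 12 libraries, a replicate block and leaving out each library. The values of 1 gene of the other lists are not reported here.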

Additional observations from a re-analysis of the deposited data

Results flagged for a closer look

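For 19 members the change between libraries labelled KO and WT differed between the sexes in the limma interaction test. Of these 18 were lower and 1 higher, where 6.33% and 6.70% of all genes were. The male minus the female log2 fold change is given here. Among regulators and sensors it was -1.14 for Irf7, -1.19 for Ifih1, -0.66 for Ddx58 and -0.65 for Trim25. Among effectors it was -0.95 for Ifit1, -0.90 for Ifit3, -1.03 for Mx2, -1.42 for Oas1a, -1.14 for Bst2, -0.80 for Rtp4, -0.75 for Ifi44 and -0.83 for Ifi27. It was -0.80 for Isg15 and -1.06 for Usp18, and -0.76 for Gbp7 and -0.65 for Irgm1 among the GTPases. Among antigen presentation genes it was -0.31 for B2m, -0.25 for H2-D1 and 0.16 for H2-K1.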

How the results depend on the processing

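Of the members called as reported, 29 of 32 in males, 6 of 14 in females and 14 of 19 in the interaction kept their call under every alternative in which they were tested, and none changed direction. With no filter on low values, 6 in place of 12 members were lower in labelled female KO cells, and 20 in place of 31 were higher in labelled male WT than in female WT cells. In 1 fit of all 12 libraries 16 in place of 12 members were lower in labelled female KO cells, and 1 in place of 2 was higher. The 1 member with a positive interaction became 0 with median-of-ratios scaling and 0 without the mean-variance trend, and without that trend 1 in place of 3 members was lower in labelled male KO than in female KO cells. The cause was not tested.

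Leaving out 1 library at a time gave 1813 to 2318 genes called in males (2707 with all), 774 to 835 in females (1434), 1353 to 1559 in the interaction, 1037 to 1243 between the WT groups (1603) and 1328 to 1824 between the KO groups (2070). For members it gave 29 to 31 lower in males, 6 to 11 lower and 1 higher in females, 15 to 19 lower and 0 to 1 higher in the interaction, 20 to 26 higher between the WT groups, and 1 to 3 lower and 5 to 7 higher between the KO groups. Fewer libraries enter each of these fits.

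With the replicate number as a replicate block, 670 genes were called in females, with 7 members lower and 1 higher, and 2366 genes in males, with 32 members lower. The block gave 1518 genes in the interaction, 1114 between the WT groups and 1397 between the KO groups. Libraries of the same number did not deviate together (r across genes from -0.057 to 0.078). This correlation cannot tell whether cultures of the same number were handled together.

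Other scaling moved the median of all genes by at most 0.022. With median-of-ratios scaling the share of called genes that were higher went from 49.1% to 57.2% in females and from 49.6% to 53.0% in males. The members lower in labelled KO cells stayed at 12 in females and 32 in males under that scaling. Among the called members, Mx2, Oasl1, Gbp2, Gbp7 and Irgm2 were not tested at a mean of at least 5 TPM. Where a group is 1 line, the cultures do not measure the spread between lines or embryos, and the depth each library reached, which sets the precision of low TPM, is unknown.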
